A study of Mus musculus with 24 samples.

Results

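SOX8 binding was compared between the young and the nearly mature mouse retina, from the 2653 SOX8 peaks listed at postnatal day 2 (P2) and the 2400 listed at postnatal day 17 (P17), 5053 of the 349901 peaks in the 8 peak lists of the study. A peak that touched a peak of the other age by at least 1 bp was called shared, and the rest were called P2-only or P17-only. This gave 1215 shared and 1438 P2-only peaks at P2, and 1209 shared and 1191 P17-only peaks at P17. Protein-coding genes, 21887 in the GRCm38 annotation, were assigned a peak that lay over the gene or within 5 kb of it.

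The study profiled wildtype mouse retinas at both ages by CUT&RUN, in which an antibody guides a nuclease to cut out the DNA bound by its target, and asked how SOX8 and SOX9 act in the formation of Müller glia. Every group came from 600000 nuclei of whole retina per reaction and carried no allele and no treatment; strain and sex are not given in the sources used here. Each SOX8 list joins 4 libraries, 2 with an antibody from GeneTex and 2 with one from Proteintech, and the SOX9, H3K4me3 and H3K27ac lists of the same age join 2 libraries each. Since each list is a single pooled set of intervals, no replicate spread can be given: each share has a 95% Wilson interval and each difference a 95% Newcombe interval, which cover counting error over peaks only, and the read depth behind a peak is unknown.

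SOX8 and its close relative SOX9 belong to the SoxE group of transcription factors, whose HMG box binds short AT-rich DNA motifs and bends the helix. In the retina they are known from late progenitors and from Müller glia, the radial glia that span the tissue and are born last, together with rods and bipolar cells. At P2 the retina still holds dividing progenitors, and at P17 the photoreceptors have outer segments and the glia are differentiated. H3K4me3 marks active gene starts, and H3K27ac marks active starts and enhancers. In whole retina, fewer cells of a type and less binding per cell cannot be told apart.

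To show DNA at gene starts under SOX8 peaks, the 300 bases from 250 before to 50 after a start are printed, from RefSeq (GRCm38.p6). They run 5′ to 3′ on the gene's strand. Starts were grouped by whether the window itself lay under peaks of P2 only, of both ages or of P17 only. The P2 peak over the Hes5 window is a shared peak, whose P17 partner lies 2766 bp from the start. Capitals mark the SOX core, ACAAAG or ACAATG on either strand (CTTTGT and CATTGT when read from the other strand). The starts of Sox2 (chr3:34649745-34650044, plus strand), the SOX factor of neural progenitors, of Sox8 itself (chr17:25570637-25570936, minus strand) and of Hes5 (chr4:154960673-154960972, plus strand), a Notch-driven repressor of neuronal fate, lay under P2 SOX8 peaks but not under P17 ones:
Sox2: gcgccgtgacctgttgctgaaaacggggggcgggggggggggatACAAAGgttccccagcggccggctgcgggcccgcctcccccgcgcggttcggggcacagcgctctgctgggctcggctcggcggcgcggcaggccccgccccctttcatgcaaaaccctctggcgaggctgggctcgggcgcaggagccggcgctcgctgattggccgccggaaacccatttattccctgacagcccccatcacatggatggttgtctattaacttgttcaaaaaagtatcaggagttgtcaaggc
Sox8: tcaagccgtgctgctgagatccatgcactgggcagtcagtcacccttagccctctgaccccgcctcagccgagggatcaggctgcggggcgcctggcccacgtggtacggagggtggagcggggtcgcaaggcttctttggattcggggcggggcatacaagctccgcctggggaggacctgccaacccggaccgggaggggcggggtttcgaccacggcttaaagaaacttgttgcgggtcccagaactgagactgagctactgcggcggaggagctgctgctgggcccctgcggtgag
Hes5: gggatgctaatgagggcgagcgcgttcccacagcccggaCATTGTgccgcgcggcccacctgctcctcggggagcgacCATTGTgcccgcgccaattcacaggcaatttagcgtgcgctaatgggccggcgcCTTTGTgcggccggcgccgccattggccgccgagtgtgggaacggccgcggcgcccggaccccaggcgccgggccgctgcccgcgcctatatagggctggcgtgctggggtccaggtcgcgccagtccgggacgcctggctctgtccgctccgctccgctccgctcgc
The starts of Hes6 (chr1:91413173-91413472, minus strand), which codes for an inhibitor of HES1, and of Mcm7 (chr5:138171217-138171516, minus strand), a subunit of the replicative helicase, lay under SOX8 peaks at both ages:
Hes6: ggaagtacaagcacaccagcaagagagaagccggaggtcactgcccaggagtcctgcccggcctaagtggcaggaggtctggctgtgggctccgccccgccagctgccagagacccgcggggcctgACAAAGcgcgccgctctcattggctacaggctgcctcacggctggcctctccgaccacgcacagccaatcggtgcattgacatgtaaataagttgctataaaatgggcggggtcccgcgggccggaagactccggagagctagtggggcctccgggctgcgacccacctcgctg
Mcm7: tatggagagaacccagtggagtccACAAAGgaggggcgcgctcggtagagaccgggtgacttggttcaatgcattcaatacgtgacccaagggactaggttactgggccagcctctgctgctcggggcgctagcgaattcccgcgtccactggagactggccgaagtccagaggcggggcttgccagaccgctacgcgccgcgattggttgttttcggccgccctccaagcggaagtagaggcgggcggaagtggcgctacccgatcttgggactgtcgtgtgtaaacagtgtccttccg
The starts of Rom1 (chr19:8929307-8929606, minus strand), a tetraspanin of rod and cone outer segments, and of Atf3 (chr1:191183284-191183583, minus strand), a stress-induced bZIP factor, lay under P17 peaks alone:
Rom1: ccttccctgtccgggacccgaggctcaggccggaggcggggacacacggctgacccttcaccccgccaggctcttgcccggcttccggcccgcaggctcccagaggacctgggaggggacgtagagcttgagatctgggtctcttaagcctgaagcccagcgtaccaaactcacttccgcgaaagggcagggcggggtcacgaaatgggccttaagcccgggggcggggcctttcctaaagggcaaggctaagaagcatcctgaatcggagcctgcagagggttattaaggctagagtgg
Atf3: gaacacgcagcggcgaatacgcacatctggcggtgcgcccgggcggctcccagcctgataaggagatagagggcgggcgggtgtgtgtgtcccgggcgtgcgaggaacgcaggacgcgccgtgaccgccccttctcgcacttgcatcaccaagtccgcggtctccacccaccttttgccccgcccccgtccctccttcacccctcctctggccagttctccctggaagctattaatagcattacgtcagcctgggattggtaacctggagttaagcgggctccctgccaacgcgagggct
These windows were rich in G and C, between 61.3% (Mcm7) and 72.7% (Hes5). The SOX core occurred 3 times before the Hes5 start, at 211, 172 and 118 bases, once each before the starts of Sox2 (206 bases), Hes6 (124 bases) and Mcm7 (226 bases), and not in the windows of Sox8, Rom1 and Atf3. H3K4me3 covered the Sox2 and Sox8 starts at P2 but not at P17, and the Atf3 start at P17 but not at P2. It covered the other 4 starts at both ages.

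Hairpins of microRNAs under SOX8 peaks are shown next, since they name short RNAs whose genes lay in each set: of 1005 hairpins in RefSeq (GRCm38.p6), 19 lay under SOX8 peaks at both ages, 16 at P2 only and 24 at P17 only. Mature sequences are 5′ to 3′ with the seed, bases 2 to 8, in capitals. Mir9-3 (chr7:79505264-79505353), 1 of the genes of the neural miR-9, was under a P2-only peak. Mir191 (chr9:108568319-108568392) and Mir219a-1 (chr17:34024983-34025092) were under peaks of both ages, and Mir425 (chr9:108568777-108568861), the neighbour of Mir191, and Mir92b (chr3:89227116-89227198) under P17 peaks alone:
miR-9-5p: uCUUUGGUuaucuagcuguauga
miR-9-3p: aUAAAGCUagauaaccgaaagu
miR-191-5p: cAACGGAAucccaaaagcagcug
miR-219a-5p: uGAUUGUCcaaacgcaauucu
miR-425-5p: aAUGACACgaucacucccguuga
miR-92b-3p: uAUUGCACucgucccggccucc
Mir191 and Mir425 lie side by side, and the P17 peak covered both hairpins where the P2 peak covered Mir191 alone.

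Over the whole lists, about as many SOX8 peaks were lost as were kept. Of the P2 peaks 45.8% (1215 of 2653) touched a P17 peak, and of the P17 peaks 50.4% (1209 of 2400) touched a P2 peak. Among the widest 1200 peaks of each list these shares were 28.5 and 28.2%. Where the ages met they met well: 98.8% of the 1217 touching pairs shared at least 50% of the shorter peak, the median overlap was 2122 bp and the median distance between centres was 254 bp. P2-only peaks lay a median of 206.6 kb from the nearest P17 peak, and P17-only peaks 71.2 kb from the nearest P2 peak. The pairs nearest the 1 bp limit on the inside were at Cxxc5 (14 bp of overlap), Ccdc51 and Plxnb1 (57 bp), and Pdxp and Sh3bp1 (60 bp). Just outside it were peaks at Mn1 (98 bp apart), Ncln and S1pr4 (110 bp) and Macrod1 (136 bp).

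The P17-only peaks were the widest set. Their median width was 3332 bp, against 2630 bp for shared peaks measured at P17, 2398 bp for shared peaks measured at P2 and 2072 bp for P2-only peaks. At P2 the share of peaks kept was higher in wider peaks, from 28.9% (95% interval 25.6 to 32.5) of the narrowest 664 peaks to 57.9% (54.1 to 61.6) of the widest 663. At P17 it went the other way, from 59.8% (55.9 to 63.7) of the narrowest 600 peaks and 65.8% of the next 600 to 33.2% (29.5 to 37) of the widest 600. The P17 list also held 94 peaks under 1 kb, down to 1 bp, of which 5 were shared. The P2 list held 13 peaks under 1 kb. Wider peaks at P17 were not particular to SOX8. The median width was 2217 bp at P2 and 2912 bp at P17 over the whole SOX8 lists, and 2668 and 5336 bp for SOX9. It was 1166 and 3268 bp for H3K27ac, and 3542 and 3703 bp for H3K4me3.

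**Figure D1:**
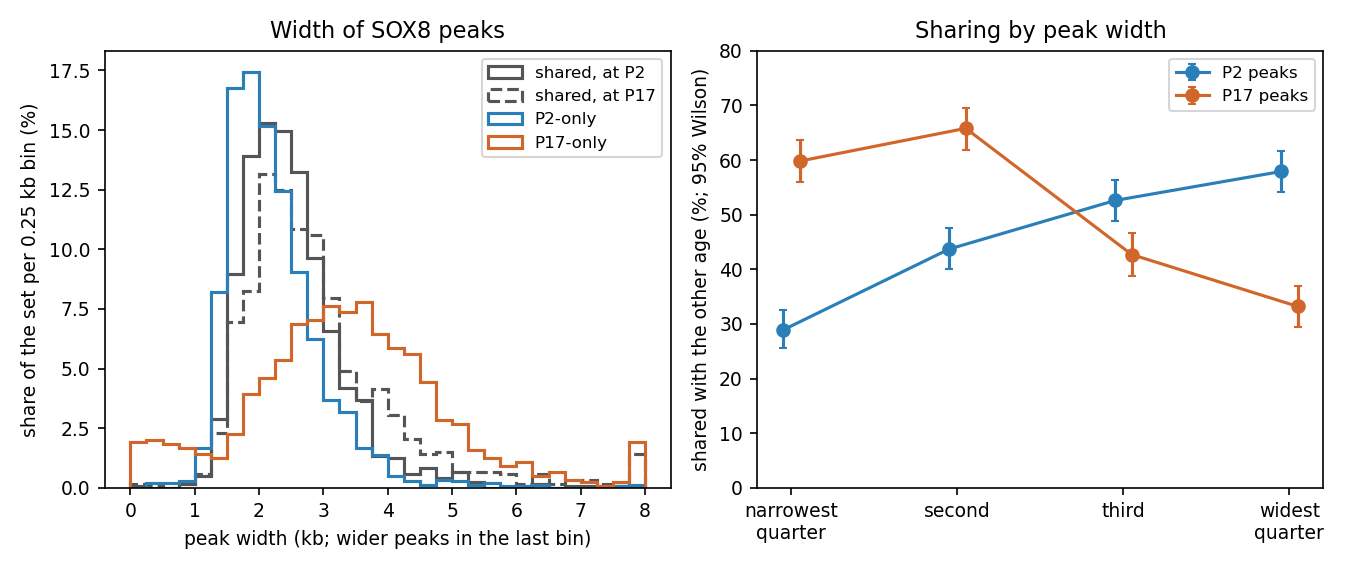
Left, distribution of SOX8 peak widths in 0.25 kb bins, as a percent of each set. Right, percent of peaks shared with the other age in 4 equal classes of peak width, with 95% Wilson intervals. P17-only peaks are spread around a median of 3332 bp and include 89 under 1 kb, and sharing is lowest in narrow peaks at P2 (28.9%, against 57.9% in the widest) and lowest in wide peaks at P17 (33.2%, against 59.8% in the narrowest).

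Shared and P2-only peaks sat mostly at gene starts, and P17-only peaks mostly inside genes. A gene start lay within 1 kb of 78% (75.5 to 80.2) of shared P2 peaks, 68.3% (65.8 to 70.7) of P2-only peaks and 35.3% (32.6 to 38.1) of P17-only peaks, a difference of 33 points between P2-only and P17-only (29.3 to 36.6). The table of starts holds 17492 of the 21887 genes (79.9%) and none on chromosome 18, whose 79 P2 and 57 P17 peaks are left out of these shares near a start. Peaks over a gene body but away from any start in the table made up 54.2% of all P17-only and 21.7% of all P2-only peaks, with those on chromosome 18 counted as not in this class. The share over any gene body, 90.6% of P2-only and 89.8% of P17-only peaks, differed by less than its counting error (0.771 points, -1.5 to 3.09).

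The histone marks split the sets in the same way. H3K4me3 of the same age covered 96% (94.8 to 97) of shared P2 peaks, 85% (83.1 to 86.8) of P2-only peaks and 42.4% (39.6 to 45.2) of P17-only peaks. The loss of a SOX8 peak seldom went with the loss of H3K4me3: 79.3% of P2-only peaks carried H3K4me3 at both ages, and 82 of 1438 (5.7%) carried it at P2 and not at P17. Among P17-only peaks 33.1% carried H3K4me3 at both ages and 9.32% (111) at P17 but not at P2. H3K27ac without H3K4me3 at P17 covered 30.3% (27.8 to 33) of the P17-only peaks, and 27.3% (24.8 to 29.9), 325 peaks, lay under neither mark at P17. The P2 H3K27ac list holds 287845 intervals over 525.4 Mb and touched 99.7% of the shared and 99.7% of the P2-only peaks, so it sorts them little.

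SOX9 peaks of the same age lay with most SOX8 peaks except the P17-only ones. A P2 SOX9 peak touched 98.6% (97.8 to 99.1) of shared P2 peaks and 91.1% (89.5 to 92.5) of P2-only peaks. A P17 SOX9 peak touched 76.2% of shared peaks, 41.6% (38.9 to 44.5) of P17-only peaks and 24.3% (22.1 to 26.6) of P2-only peaks. No SOX9 peak of either age touched 45.3% (42.5 to 48.2) of P17-only peaks, against 7.93% of P2-only and 0.905% of shared P2 peaks. The P2 SOX9 list has 5476 peaks and the P17 one 2855, which cover 16 Mb and 16.3 Mb. Of the 325 P17-only peaks under neither mark, 25.2% (20.8 to 30.2) met a P17 SOX9 peak, against 54.5% (50.1 to 58.7) of the 505 with H3K4me3.

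**Figure D2:**
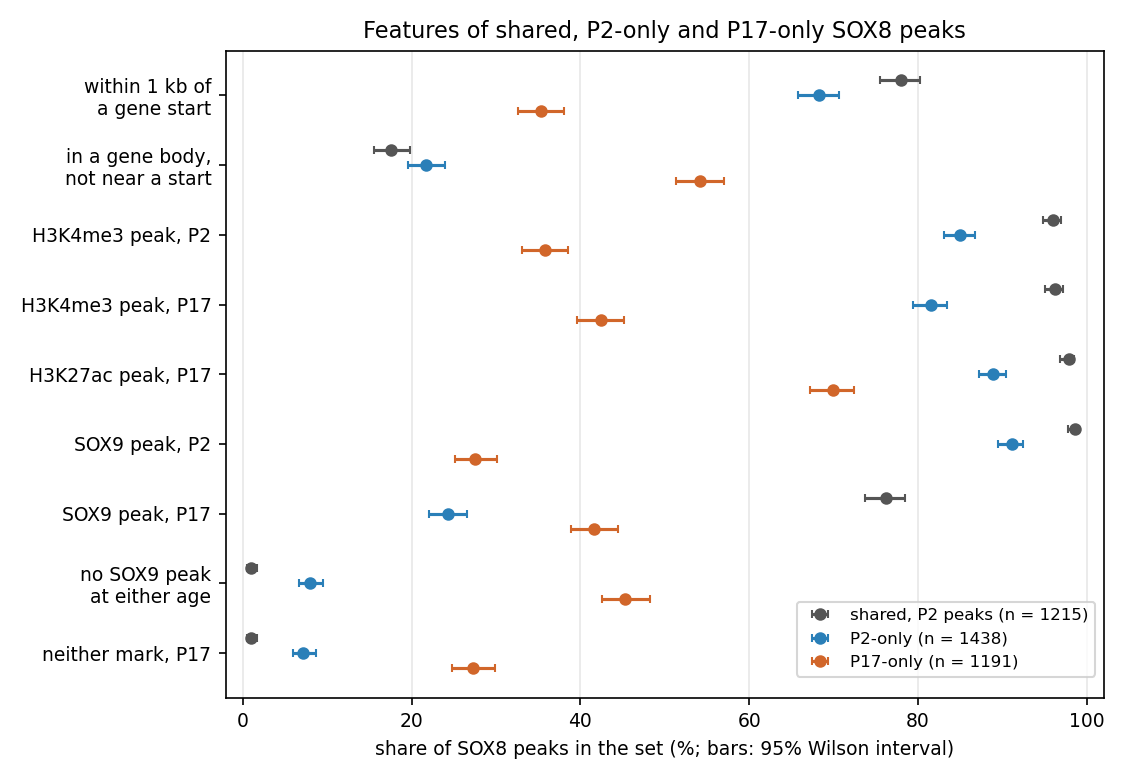
Percent of shared (grey, P2 peaks), P2-only (blue) and P17-only (orange) SOX8 peaks with each feature, with 95% Wilson intervals; peaks on chromosome 18 are left out of the share near a gene start. P17-only peaks are the set away from gene starts (35.3% within 1 kb), low in H3K4me3 at P17 (42.4%) and high in peaks without SOX9 (45.3%).

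Over genes, 1769 had a SOX8 peak at both ages (8.08% of all protein-coding genes), 1533 at P2 only (7% of them) and 1081 at P17 only (4.94% of them). These background shares are what the counts of each gene list below are read against; the lists are descriptions, since the genes were listed with earlier results of these data known. Counted only where a peak lay within 1 kb of a known start, the numbers were 1084, 1092 and 465 of 17492 genes. Of the 1769 kept genes, 1655 had a peak pair that touched and 114 had separate peaks at the 2 ages. H3K4me3 lay over 93.4% of the P2-only genes at P17, and over 72.5% of the P17-only genes already at P2. At P2 it lay over 98.4% of the kept genes and over 49.3% of all genes. The background shares count genes with and without the mark, and no share over marked genes alone was taken. For 61 of the genes bound at P17, 41 of them without a P2 peak, the P17 call rests on intervals under 1 kb, among listed genes Cspg4, Notch1, Pfkl, Prdm8 and Slc32a1. Genes with at least 2 peaks numbered 205 of 3302 (6.21%) at P2 and 422 of 2850 (14.8%) at P17.

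**Figure D3:**
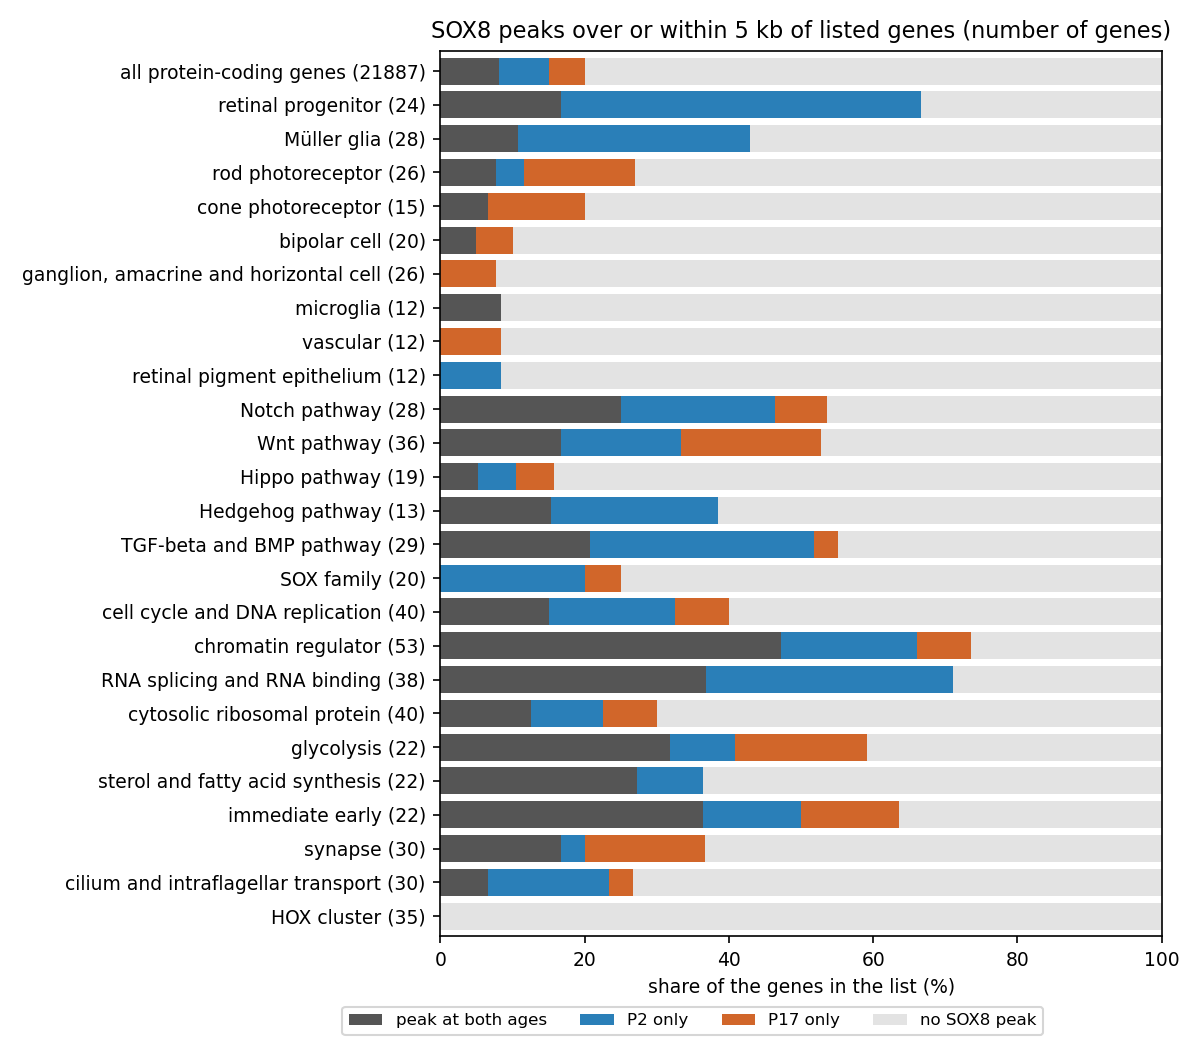
Percent of the genes of each list (number of genes in parentheses) with a SOX8 peak at both ages, at P2 only, at P17 only or at neither. P2-only genes made up 50% of the progenitor and 32.1% of the Müller glia list, against 7% of all genes. P17-only genes made up 15.4% of the rod list (4 of 26), against 4.94% of all genes. The progenitor and Müller glia lists had none, which in lists of 24 and 28 genes is little below that share. Chromatin and splicing genes are the most often bound.

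As a check of the labelled ages, H3K4me3 lay over 23 of 24 progenitor genes at P2 and 11 at P17, and over 12 of 26 rod genes at P2 and 26 at P17.

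Retinal progenitor genes were bound mainly at P2. Of 24 listed genes, 12 had SOX8 peaks at P2 only (50%, against 7% of all genes), 4 at both ages, none at P17 only and 8 at neither. Pax6, the homeobox factor at the head of eye development, had the most SOX8-covered DNA of any lost gene: 10700 bp at P2, in 3 peaks (chr2:105672288-105675956, chr2:105679939-105683364 and chr2:105685379-105688983), and 0 bp at P17. The central of these peaks lay over a Pax6 start and the outer ones 3392 and 2916 bp from one. All 3 kept H3K4me3 at P17, so the SOX8 peaks went while the promoter mark stayed.

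Six3, which with Pax6 specifies the eye field, had 9318 bp at P2 and 0 bp at P17, its main peak an 8049 bp block over the gene start (chr17:85613993-85622041). Six6, Lhx2 and Hes1, homeobox and bHLH factors of the same progenitors, had 5251, 3793 and 3880 bp at P2 and 0 bp at P17. Sox2 had 1 peak of 4200 bp over its start (chr3:34647580-34651779), and Ccnd1, the D cyclin that drives progenitor division, had 4554 bp in 2 peaks, again with 0 bp at P17. Neurog2 (3105 bp), a proneural bHLH factor that commits progenitors to neurons, Id3 (2748 bp), Zfp36l1 (2452 bp) and Sfrp2 (1915 bp) were also bound at P2 only.

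The H3K4me3 mark went with SOX8 at many of these genes. Of the 22 P2 SOX8 peaks at progenitor genes, 9 lay under H3K4me3 at P2 and not at P17, among them peaks at Ccnd1, Id3, Neurog2, Notch1, Sfrp2, Six3 and Sox2 (at Six3 the smaller, upstream peak), against 5.7% of all P2-only and 1.15% of all shared P2 peaks. Over whole genes, H3K4me3 was lost by P17 from 12 of the 24. Of the 4 members with P17 peaks, 2 had far less covered DNA then. Hes5 had 7140 bp at P2 and 1492 bp at P17, the later peak lying 2766 bp from its start, and Notch1 had 4927 bp over its start at P2 and a separate 711 bp interval inside the gene at P17. Rax (4770 and 3594 bp), the retinal homeobox factor, and Meis1 (3124 and 3363 bp) kept a shared peak.

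Müller glia genes were bound mainly at P2 too. Of 28 listed genes, 9 were bound at P2 only (32.1%), 3 at both ages, none at P17 only and 16 at neither. The lost ones included Rlbp1 (2167 bp), the retinaldehyde carrier of the glial visual cycle, Glul (2293 bp), glutamine synthetase, Kcnj10 (1913 bp), the potassium channel Kir4.1, Vim (2774 bp), an intermediate filament, Car2 (3196 bp), a carbonic anhydrase, and Nfib (3371 bp), a nuclear factor I gene of late progenitors and glia. All had 0 bp at P17. The peak at Rlbp1 lay 4359 bp from its start, also lies at Fanci and reached a gene start other than that of Rlbp1. Glul, Kcnj10 and Car2 kept H3K4me3 over the gene or its flank at P17, while Rlbp1 and Vim did not. The lost SOX8 peaks at Glul and Car2 lay under H3K4me3 at both ages. The one at Kcnj10, 8017 bp from its start, lay under H3K4me3 at neither age.

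Sox8 had a single P2 peak of 3145 bp over its own start (chr17:25568710-25571854), under H3K4me3 and SOX9 at P2 and under none of the H3K4me3, H3K27ac, SOX8 and SOX9 lists at P17. Sox9 had no SOX8 peak at either age. Its H3K4me3 covered 5787 bp at P2 and 0 bp at P17, so the genes of both profiled factors had no H3K4me3 peak in the whole-retina P17 list. Over the Müller glia list, 25 of 28 genes had H3K4me3 at P2 and 14 at P17; the part of cell numbers in the lost SOX8 peaks was not tested. Nfix (2844 and 2949 bp), Dkk3 (3659 and 2734 bp) and Rdh10 (3096 and 2844 bp, a peak that also lies at Rpl7) had peaks at both ages, which touched only at Rdh10.

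In the SOX family, 4 of 20 genes were bound at P2 only and 1 at P17 only, none at both. Sox2, Sox12 (3739 bp), Sox11 (3365 bp) and Sox8 were the lost ones, each with its peak over the gene start. Sox11 and Sox12 are SoxC factors of newborn neurons, and both kept H3K4me3 at P17. Sox13 had a 4622 bp peak at P17 (chr1:133386584-133391205), 33007 bp from its start, under no SOX9 and no H3K4me3 peak of either age and no P17 H3K27ac peak. The other 15 members, among them Sox4, Sox9 and Sox10, had none.

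Rod photoreceptor genes were bound more often at P17. Of 26 listed genes, 4 were bound at P17 only (15.4%, against 4.94% of all genes), 2 at both ages, 1 at P2 only and 19 at neither. Rom1 had 3332 bp over its start, Prph2, the partner tetraspanin of Rom1 in outer segment discs, 3261 bp, and Nrl, the factor that sets rod fate, 2910 bp in 2 intervals of 463 and 2447 bp, all with 0 bp at P2.

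Gnat1, rod transducin, had SOX8 at both ages, but 2447 bp at P2 and 12216 bp at P17, in 2 peaks that also lie at Slc38a3. Crx, the homeobox factor of photoreceptors, kept a shared peak over its start (2830 and 3532 bp). Gnb1 was bound at P2 only (1778 bp), through a peak 71131 bp from its start. The rod genes also gained H3K4me3 peaks: 12 of the 26 genes carried the mark at P2 and all 26 at P17, and of the 8 P17 SOX8 peaks at rod genes 4 lay under H3K4me3 found at P17 and not at P2, among them peaks at Gnat1, Nrl and Prph2.

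Cone genes were bound about as often as all genes, and other retinal neurons had fewer bound genes. No SOX8 peak lay at 80% of cone genes, 90% of bipolar cell genes and 92.3% of ganglion, amacrine and horizontal cell genes. Over all genes this share was 80%. Among 15 cone genes, Gnb3 was bound at both ages (1895 and 4717 bp). Gnb5 (2836 bp) and Thrb (2318 bp), the thyroid hormone receptor of cone fate, were bound at P17 only. These 2 made up 13.3% of the cone list, near the 15.4% of the rod list. Among 20 bipolar cell genes, Gng13 had 6168 bp at P17 only, under 2 peaks of which the wider also lies at Chtf18, Rpusd1 and Mslnl, and Prdm8 had 2624 bp at P2 and a separate 40 bp interval at P17. Among 26 ganglion, amacrine and horizontal cell genes the bound ones were Slc6a9, the glycine transporter GlyT1, with 9828 bp at P17 in 2 peaks, and Slc32a1, the vesicular inhibitory transporter, with 456 bp. Markers of cells outside the neural retina were nearly free of SOX8: 1 of 12 genes each for microglia (Aif1, 768 bp and 41 bp at the edge of the flank), vessels (Cspg4, 510 bp at P17) and pigment epithelium (Pmel, 1736 bp at P2, a peak it shares with Cdk2). H3K4me3 lay over 1 of 12 microglial genes at each age, 1 and 2 of 12 vascular genes, and 3 and 4 of 12 pigment epithelium genes at P2 and P17.

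**Figure D4:**
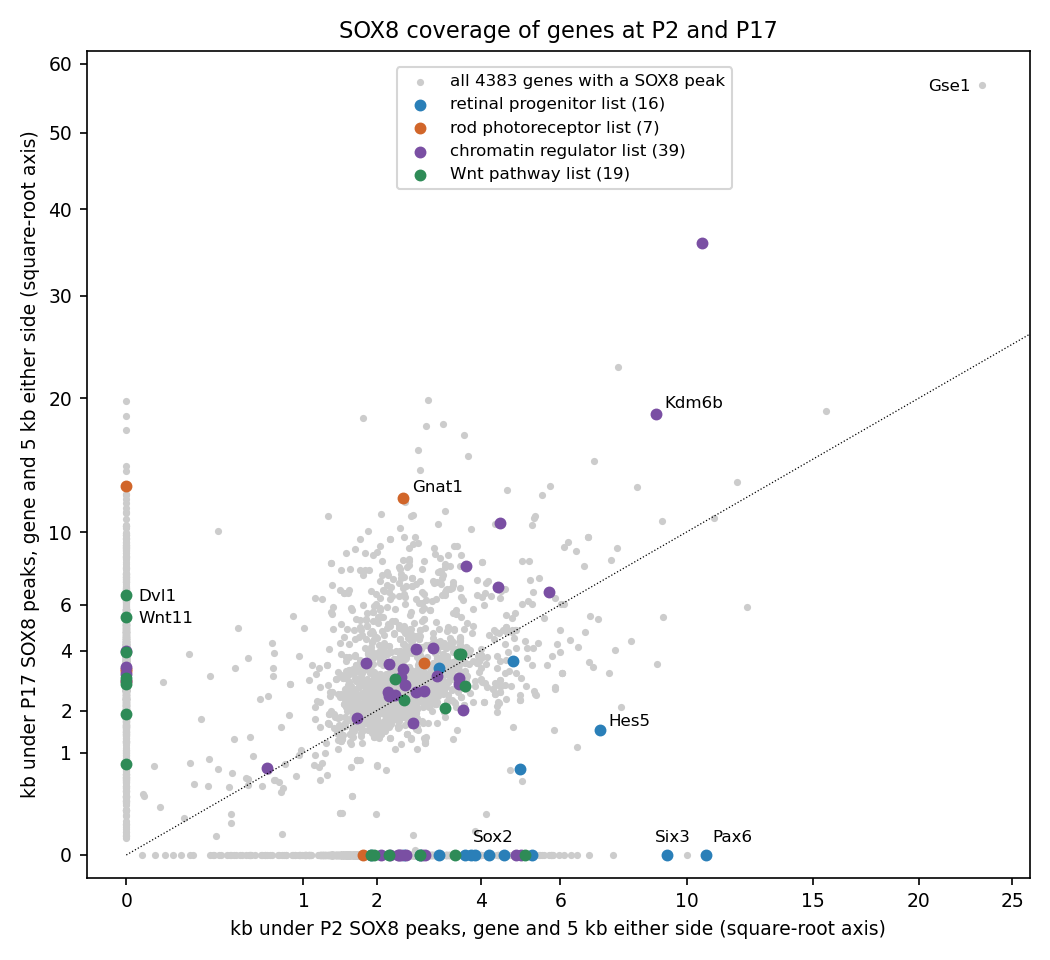
DNA under SOX8 peaks over each gene and 5 kb either side, P2 against P17 (square-root axes, dotted line of equal coverage), with the progenitor, rod, chromatin and Wnt lists in colour. Pax6, Six3 and Sox2 lie on the P2 axis, Dvl1 and Wnt11 on the P17 axis, and Gse1 and Kdm6b far above the line.

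In the Notch pathway, by which progenitors hold each other undifferentiated, 7 of 28 genes were bound at both ages, 6 at P2 only and 2 at P17 only. Among the ligands, Dll1 was bound at P2 only (3767 bp) and Jag2 at P17 only (12508 bp in 3 peaks). Of the receptors, Notch4 kept a shared peak and Notch1 did not, but the Notch4 one lay 26321 bp from its start at P2 and 25533 bp at P17. The nuclear partner Rbpj (3335 and 3096 bp) and the coactivator Maml3 (5918 and 4257 bp) kept theirs. Lfng, a fringe glycosyltransferase that tunes the receptor, had 5751 bp at P2 only, and its relative Mfng 3647 bp at P17 only. Of the targets, Hes1 and Hey1 (2340 bp) were lost while Hes6 was kept (4305 and 4460 bp).

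Wnt genes were bound in each class. Of 36, 6 were bound at both ages, 6 at P2 only and 7 at P17 only (19.4%). The P2-only members were the frizzled receptors Fzd5 (5064 bp), Fzd7 (2742 bp) and Fzd4 (1962 bp), the coreceptor Lrp5 (2194 bp), the kinase Gsk3b (3444 bp) and the secreted inhibitor Sfrp2. The P17-only members were 4 ligands, Wnt11 (5425 bp), Wnt2b (3931 bp), Wnt7b (3016 bp) and Wnt7a (1907 bp), and the cytoplasmic Dvl1 (6474 bp), Axin2 (2818 bp) and Axin1 (785 bp). The Axin1 call rests on the edge of a 4349 bp peak that also lies at Arhgdig, Pdia2 and Rgs11. The peaks at Wnt11, Wnt2b, Wnt7a and Wnt7b, and 1 of the 2 at Dvl1, carried neither H3K4me3 nor H3K27ac at P17. Those at Wnt11, Wnt2b and Wnt7a reached the gene start. Shared peaks lay at the ligands Wnt3 (3524 and 3869 bp) and Wnt5b, the receptor Fzd8 (3577 and 3889 bp), the kinase Gsk3a (3245 and 2079 bp) and the cytoplasmic Dvl2 (2453 and 2310 bp). The Wnt3 peaks lay 33623 bp from its start at P2 and 33731 bp at P17, under no H3K4me3 or SOX9 peak of either age. Those at Wnt5b lay 11640 and 11509 bp from its start. The secreted Dkk3 had separate peaks at the 2 ages (3659 and 2734 bp).

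In the TGF-beta and BMP pathway, 9 of 29 genes were bound at P2 only (31%), 6 at both ages and 1 at P17 only. The lost ones were receptors (Tgfbr1, 2324 bp; Bmpr2, 1609 bp; Acvr1, 1990 bp), the SMADs Smad5 (2358 bp) and Smad6 (3422 bp), and all 4 Id genes, which code for dominant-negative bHLH partners induced by BMP: Id2 with 4407 bp, Id3 with 2748 bp, Id4 with 2675 bp and Id1 with 2360 bp, each with 0 bp at P17. The Id1, Id2, Id3 and Smad6 peaks lay under H3K4me3 at P2 and not at P17, and the Id4 peak at both ages. The ligand Bmp7 had 3200 bp at P17 only, under neither mark. Smad7 (2235 and 1861 bp) and Acvr2b (2979 and 6195 bp) kept SOX8. In the Hedgehog pathway Ptch1 (3778 bp), its receptor, Gli1 (3874 bp), its effector, and Cdon (2217 bp) were P2-only, Sufu and Gas1 were bound at both ages, and 8 of 13 genes at neither. In the Hippo pathway 16 of 19 had no SOX8 peak, and Tead3 was bound at both ages, Amotl2 at P2 and Nf2 at P17.

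Chromatin regulators had the highest share of genes bound at both ages among the 25 lists. Of 53 genes, 25 were bound at both ages (47.2%, against 8.08% of all genes), 10 at P2 only, 4 at P17 only and 14 at neither. All 53 carried H3K4me3 at both ages, while 49.3% of all genes had it at P2 and 50.9% at P17. None of the 43 P2 SOX8 peaks at these 53 genes lay under H3K4me3 at P2 alone. The H3K27 demethylase Kdm6b had 8952 bp at P2 and 18600 bp at P17. The H3K4 methyltransferase Setd1b had 5704 and 6634 bp, and the DNA methyltransferase Dnmt3a 3666 and 7981 bp. Arid1a (4967 bp), Brd2 (4832 bp) and the PRC2 core subunits Ezh2 (2851 bp), Suz12 (2362 bp) and Eed (2068 bp) had SOX8 at P2 only. Tet3 (3978 bp), Hdac5 (3379 bp), Hdac7 (3138 bp) and Kat6b (2888 bp) had it at P17 only.

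Splicing and RNA-binding genes, also under H3K4me3 at both ages in 37 of 38 cases, were split between kept and lost. Of 38 genes, 14 were bound at both ages (36.8%), 13 at P2 only (34.2%) and none at P17 only. Hnrnpu (5231 and 3477 bp) and Ddx5 (3181 and 2990 bp) kept a shared peak, and Ptbp1 had separate peaks at the 2 ages that did not touch (3478 and 3726 bp). Msi1, a Musashi protein of neural stem cells and photoreceptors, had the widest P2-only peak of all, 10029 bp (chr5:115429078-115439106), and 0 bp at P17, with H3K4me3 there at both ages. Msi2 (4240 bp), U2af2 (3372 bp) and Nova1 (3268 bp) were lost as well.

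Cell cycle genes followed no single direction. Of 40, 6 were bound at both ages, 7 at P2 only and 3 at P17 only. Mycn (6486 and 4152 bp), the CDK inhibitor Cdkn1b (5351 and 2446 bp), Mcm7 (2315 and 2377 bp) and Cdk4 (1728 and 2719 bp) kept SOX8, and Ccnd1, Cdkn1a (3165 bp), E2f1 (3030 bp) and Pcna (1720 bp) lost it. E2f4 (4746 bp), Mcm2 (3005 bp) and Aurka (2573 bp) had SOX8 at P17 only.

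Glycolysis genes, on which photoreceptors and glia depend, were often bound. Of 22 genes, 7 were bound at both ages (31.8%), 4 at P17 only (18.2%) and 2 at P2 only. Hk1, the first enzyme of the pathway, had 10344 bp in 3 peaks at P17, 1 of them over its start, and 0 bp at P2. Aldoa (2165 and 6991 bp) and Gapdh (3569 and 5418 bp) were bound at both ages with more DNA covered at P17. Ldha, which reduces pyruvate to lactate, had 5824 bp and the lactate exporter Slc16a3 1618 bp, at P17 only. The glucose transporter Slc2a1 had 1363 bp at P2 only.

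Sterol and fatty acid synthesis genes were bound at both ages in 6 of 22 cases, among them Srebf2 (2994 and 7195 bp), the master factor of cholesterol synthesis, Fasn (3465 and 5589 bp) and Scd2 (3838 and 3616 bp), and at P17 only in none. Immediate early genes, which respond to activity and to tissue handling, were bound at both ages in 8 of 22 (36.4%), with Jund (4027 and 8215 bp), Ier2, Jun and Dusp1 among the most covered. Egr1 (3444 bp) was P2-only, and Atf3 (3287 bp), Egr3 (2834 bp) and Fosl1 (2346 bp) were P17-only. Synaptic genes had 5 of 30 at both ages, 5 at P17 only and 1 at P2 only. Shank3, a postsynaptic scaffold, had 9573 bp and Cacna2d4, a calcium channel subunit of photoreceptor terminals, 8516 bp at P17, with 0 bp at P2. The Shank3 peaks lay under neither mark at P17.

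Ribosomal protein genes had SOX8 at 5 of 40 at both ages (12.5%), 4 at P2 only and 3 at P17 only, while all 40 carried H3K4me3 at both ages. Cilium genes had 5 of 30 at P2 only (Ift140, Ift80, Ift27, Bbs2 and Rpgrip1, between 1508 and 2349 bp, the last through a peak at Hnrnpc), 2 at both ages and 1 at P17 only. None of the 35 HOX genes, which pattern the body axis outside the eye, had a SOX8, SOX9, H3K4me3 or P17 H3K27ac peak.

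The genes with the most SOX8 at both ages were led by Gse1, a component of a histone demethylase complex, with 8 peaks over 23336 bp at P2 and 14 peaks over 56830 bp at P17 within its 352.9 kb. Ccdc85c, an apical junction protein of neural progenitors, had 5 peaks at each age (15595 and 18869 bp), and Cic, a repressor downstream of receptor tyrosine kinases, 11890 and 13370 bp. Zmiz1 went from 2 to 6 peaks, 1 of which is the 1 bp interval of the P17 list. Over all 1769 kept genes the median coverage was 2386 bp at P2 and 2763 bp at P17, and 1111 (62.8%) had more at P17. The P17 coverage was at least 2 times the P2 coverage in 279 of them and the P2 coverage at least 2 times the P17 coverage in 54. Peaks were wider at P17 over the whole SOX8 list too (median 2912 bp, against 2217 bp at P2). More covered DNA at a gene is therefore not a measure of more binding there.

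Among genes bound at P2 only, the most covered after Pax6, Msi1 and Six3 were Tnrc18 (7538 bp), Arhgef10l (6834 bp in 3 peaks), Car11 (6458 bp), Gnai2 (6313 bp), Tsc22d1 (6105 bp), Ndrg1 (5975 bp) and Marcks (5797 bp). Each carried H3K4me3 at both ages. Among genes bound at P17 only, the most covered were Plec (19760 bp in 4 peaks), a cytoskeletal linker, BC034090 (18514 bp in 3 peaks), Grm4 (17311 bp in 5 peaks), a metabotropic glutamate receptor, and Slc38a3 (14533 bp in 4 peaks), a glutamine transporter. Aatk, Dnm1, Pitpnm2, Jag2 and Speg were next among those named here, with 14154 down to 12419 bp. Grm4 had no H3K4me3 at either age, and Plec, BC034090 and Speg had it at P17 alone. The P17 peaks given above for Gnat1 are among those counted at Slc38a3, and the wider of them is a shared peak.

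The widest single peaks show the same contrast. The 8 widest P2-only peaks ended at 5743 bp and lay at Msi1, Six3, Tnrc18, Car11 with Dbp and Sphk2 (6458 bp), Atp5d with Midn (6363 bp), Hjurp (6029 bp), Lfng and a site with no gene within 5 kb. Of them 7 had SOX9 and H3K4me3 at P2, and the Hjurp peak had neither. The widest P17-only peaks included those at Plec (13023 bp), Ahdc1 (10421 bp), Gse1 (10242 bp), Gng13 with its neighbours (9875 bp), BC034090 (9832 bp), Celf4 (9703 bp) and Aatk (9696 bp). Of these, the peaks at Ahdc1, BC034090 and Aatk lay under H3K4me3 of P17 and the others did not. Some shared peaks were far wider at P17: the 16217 bp P17 peak at Kdm6b and Dnah2 touched 2 P2 peaks, of 2816 and 3348 bp, and the peak at Zbtb7a measured 2546 bp at P2 and 9009 bp at P17. Others were narrower then, as at Hes5 and at Sin3a, a corepressor scaffold (6212 and 2096 bp).

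Promoters with SOX8 at both ages or at P2 only had higher median CpG ratios than H3K4me3 promoters without SOX8, and P17-only ones had a lower one. The median CpG observed-over-expected ratio of the 300-base windows was 0.865 for the 1312 promoters under SOX8 at both ages, 0.853 for the 1299 at P2 only, 0.765 for the 519 at P17 only, 0.813 for the 5710 with H3K4me3 at both ages and no SOX8, and 0.567 for all 21238. A ratio under 0.6 was found in 29.9% of P17-only windows, 12.9% of P2-only and 9.22% of those bound at both ages, against 16.5% of H3K4me3 promoters without SOX8. The median GC content was 66.7, 65.3 and 64.7% for these sets, against 61.7% for H3K4me3 promoters without SOX8. The bound sets were not selected by H3K4me3. The 370 P17-only windows with the mark at both ages had a median CpG ratio of 0.811, and 19.5% of them were under 0.6. The median was 0.532 for the 81 P17-only windows with the mark at neither age, and 0.495 for the 43 with it at P17 only.

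The SOX core itself was no more frequent in the bound windows. ACAAAG or ACAATG on either strand occurred in 14.4% (12.6 to 16.4) of promoters bound at both ages, 17.4% (15.4 to 19.6) of P2-only, 17% (14 to 20.4) of P17-only, 17.9% (16.9 to 18.9) of H3K4me3 promoters without SOX8 and 25.7% of all promoters of that length. GGGCGGG, a core of SP and KLF sites, occurred in 62.4%, 57.6% and 55.7% of the bound sets, 48.3% of the H3K4me3 promoters without SOX8 and 33.9% of all. CCGGAAG, an ETS core, was found in 14.9, 16.6 and 11% of the bound sets and in 24.5% of H3K4me3 promoters without SOX8 and 11.6% of all. TAATCC, the core of CRX and OTX sites in photoreceptor genes, was found in 4.04, 3.7 and 6.17% of the bound sets, 5.5% of H3K4me3 promoters without SOX8 and 6.42% of all. TGACGTCA, the cAMP response element, was found in 3.66, 4.08 and 2.89% of the bound sets, 3.68% of H3K4me3 promoters without SOX8 and 2.24% of all. CCAAT, the NFY core, was found in 43.4, 41.3 and 36.2% of the bound sets, 36.7% of H3K4me3 promoters without SOX8 and 38.2% of all. Each word was searched on both strands on its own, so matches of different words may share bases. The sets differ in base composition, and a match describes letters and is not a bound site.

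**Figure D5:**
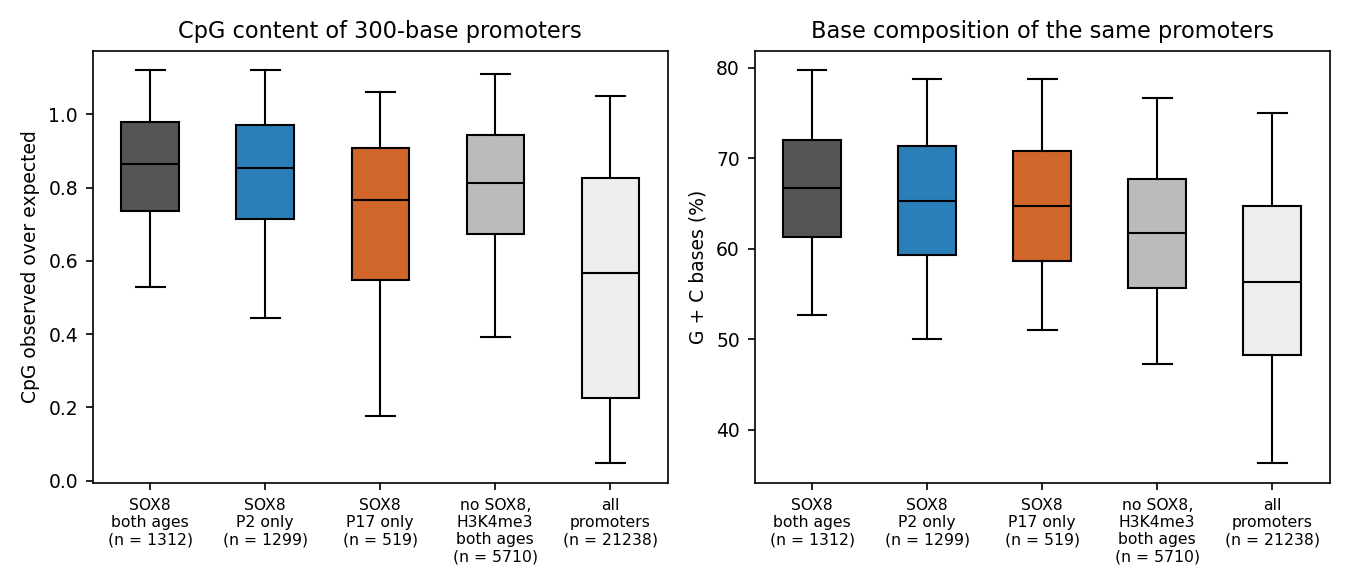
CpG observed over expected (left) and percent G + C (right) of 300-base promoter windows by SOX8 set. Boxes are quartiles with the median and whiskers run from the 5th to the 95th percentile. The P17-only box reaches lower in CpG (median 0.765) than the P2-only (0.853) and both-age boxes (0.865). The P17-only set includes windows without H3K4me3, and its windows with the mark at both ages had a median of 0.811.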

How the data were processed

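CUT&RUN peak lists of wildtype mouse retina at P2 and P17 were used as deposited: 8 lists from 24 libraries, 4 libraries for each SOX8 list and 2 for each SOX9, H3K4me3 and H3K27ac list. No list was made from the 2 IgG control libraries of each age, and how they were used is not given in the sources used here. Per the submitters' processing notes, Bowtie2, SEACR and the build GRCm38 were used; versions, thresholds, how libraries were combined and read depth are not given in the sources used here. The score column the authors deposited is 0 in every row, so peaks carry a position and a width and no height.

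Peaks were intersected (at least 1 bp) and assigned to 21887 RefSeq protein-coding genes (GRCm38.p6, 5 kb flank) and to 21263 gene starts (1 kb) with Python 3.11.15, numpy 2.4.6, pandas 2.3.3 and scipy 1.17.1; figures used matplotlib 3.10.9. The overlap code was tested on simulated data. Intervals are 95% Wilson for shares and Newcombe for differences, without a test, since each age has 1 list. Values in bp are DNA under SOX8 peaks over a gene and its flank. The members, the gene lists (636 genes in 25 lists) and the rules were chosen with earlier results of these data known. Genes named are the 8 widest peaks per set, the 10 genes with the most covered DNA among lost, gained and kept genes, the SOX family, and up to 4 members per list and status by covered DNA; list members beyond these 4 were chosen after their values were seen, and a few genes that these rules would name are not reported here. Promoter windows (21238) and microRNAs came from RefSeq tables. No genome was used, so peak sequences outside promoters were not searched. Alternatives varied the overlap rule, peak width, list length, chromosomes, flank and mark list.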

Additional observations from a re-analysis of the deposited data

How the results depend on the processing

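Each value was recomputed under other settings. Of 57 alternatives, 38 were counted as leaving the value the same, 19 moved it and 0 reversed it. Reversed means a change of sign, which only the differences could show, since shares and gene counts cannot be negative. For shares and differences, the same means within the interval of the main value. Gene counts have no interval and were counted as the same within a fixed ratio of the main value, so some counted as the same still differed. With a flank of 50 kb, genes bound at P2 only numbered 2253 against 1533. Genes bound at P17 only numbered 1372 against 1081 with that flank. The share of P2 peaks shared with P17 (45.8%) was 41.2% with reciprocal overlap of 50%, 28.5% among the widest 1200 peaks of each list and 34.8% with peaks trimmed to 500 bp, and the share of P17 peaks shared with P2 (50.4%) was 45.5%, 28.2% and 38.5% under the same settings. Genes bound at both ages (1769) numbered 568 with the widest 1200 peaks, 4049 with a flank of 50 kb and 1084 within 1 kb of a gene start. Genes bound at P2 only (1533) numbered 949 with the widest 1200 peaks, and genes bound at P17 only (1081) numbered 465 within 1 kb of a gene start. The H3K4me3 difference between P2-only and P17-only peaks (42.6 points) was 38.9 with reciprocal overlap, 36 with trimmed peaks, 39.1 with the P17 mark list for both sets and 49.3 with the P2 list for both. The SOX9 difference (49.5 points) was 45.4 with the widest 1200 peaks and 45.8 with trimmed peaks. The gene start difference (33 points) was 27.7 with the widest 1200 peaks and 22.6 with starts within 5 kb. The overlap rules do not enter the gene counts. No paired analysis was possible because the libraries of each age are joined in 1 list. Depth per library is unknown, so a peak absent from a list was not listed at that depth, which does not show that the site was unbound.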

Other observations

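Transfer RNA genes, which RNA polymerase III transcribes, lay under SOX8 peaks more often at P2 than at P17. Of 408 tRNA genes in the annotation, 30 (7.35%) lay under a P2 SOX8 peak and 4 (0.98%) under a P17 one. Of the 30, 28 lay in 18 P2-only peaks and 2 in shared peaks. All 30 lay under H3K4me3 peaks of P2 and of P17, 23 under a P2 SOX9 peak and 9 under a P17 one. H3K4me3 itself covered 166 of the 408 at P2 and 140 at P17, and SOX9 covered 59 and 20.

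The 82 P2-only peaks whose H3K4me3 was absent at P17 included further developmental regulators outside the gene lists, named here after their values were seen. Nog, a secreted BMP antagonist, had a peak of 3387 bp, Foxd2 and Foxd1, forkhead factors, peaks of 3372 and 2881 bp, Igf2bp1, an oncofetal RNA-binding protein, 3347 bp, and Ngfr, the p75 neurotrophin receptor, 3194 bp. The 111 P17-only peaks under H3K4me3 found at P17 and not at P2 included Esrrb (4950 bp), an orphan nuclear receptor of rods, and Fscn2 (4988 bp), a photoreceptor fascin, likewise named after their values were seen.

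The 94 P17 intervals under 1 kb had no like number at P2 (13). Of the 89 that were P17-only, 5.68% lay within 1 kb of a gene start, 18% under P17 H3K4me3 and 33.7% under P17 SOX9. The list holds 12 intervals under 100 bp, 1 of them of 1 bp.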
